A study of Rattus norvegicus with 30 samples.

Results

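The genes described here encode the proteasome, the enzyme complex that degrades ubiquitin-tagged proteins, and the ubiquitin-conjugating enzymes that carry the tag to its substrates. They were chosen by name alone, as all array probes whose gene symbol begins with Psma to Psmg followed by a digit, or with Ube2. The rule found 72 of the 22523 probes with values, of which 44 were named for the proteasome (43 genes) and 28 for the ubiquitin-conjugating enzymes (27 genes). *Psmb10* and *Ube2r2* had 2 probes each. *Psmc3ip* meets the rule by its letters and is counted with the proteasome probes, although it encodes a protein of meiotic recombination and not a subunit.

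RNA of the hippocampus of adult Sprague Dawley rats was hybridised to Illumina arrays, 1 rat to an array. Female and male controls had no contact with predator scent and were tested for behaviour. The other rats of each sex had been exposed to predator scent and were divided by their behaviour into minimal and extreme responders. No source used here gives the criterion for that division. Each group had 5 rats with values except the male minimal responders, which had 4, so that 29 of the 30 samples were used. The series compares both kinds of responder with controls of the same sex, and with each other.

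A substrate is marked for degradation when an activating enzyme (E1) passes ubiquitin to a conjugating enzyme (E2), which works with a ligase (E3) to build a chain on the substrate. The 26S proteasome then binds the chain. Its 19S regulatory particle removes ubiquitin and unfolds the substrate with a ring of ATPases, and its barrel-shaped 20S core cuts the chain of amino acids inside a chamber formed by rings of alpha and beta subunits. In the hippocampus this system is known for clearing proteins at synapses, and its activity is needed for lasting synaptic change and for the storage of fear memory in rodents.

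Values are array intensities on a log2 scale, on which 1 unit is a doubling. A probe's brightness depends on its sequence, so levels of different probes were not set against each other. Of the 72 probes, 65 (63 genes) lay above the background threshold of 7.03 on at least 5 arrays and were tested, 42 of the proteasome and 23 of the Ube2 genes. Those not kept were *Psma8*, *Psmb11*, *Ube2b*, *Ube2c*, *Ube2d2b*, *Ube2e2* and *Ube2t*. Over the 29 rats the proteasome probes that were tested had means from 7.17 (*Psmc3ip*), 7.18 (*Psma3*) and 7.23 (*Psmd8*) up to 12.45 (*Psmb4*), 12.68 (*Psmb1*) and 12.81 (*Psmc1*). The Ube2 probes had means from 6.94 (*Ube2n*), 7.16 (probe 2 of *Ube2r2*) and 7.18 (*Ube2j1*) up to 10.57 (*Ube2g1*), 11.45 (*Ube2e3*) and 11.45 (probe 1 of *Ube2r2*). *Ube2n* lay above background on 10 of 29 arrays. All 6 groups were fitted together with limma, and p-values were adjusted by Benjamini-Hochberg over all 11907 probes kept, with a threshold of 0.05.

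Some arrays stood apart in ways the labels do not give. A gap of at least 0.8 between rats was found in 16 probes, and the division shared by the largest number of them was taken. The values of 8 of the 16, 0 of them a proteasome or Ube2 probe, divided the rats alike. There were 12 rats on one side (called set A) and 17 on the other (set B). The rest of the 16 did not divide the rats in this way. Set A held 3 rats of each control group and 3 of each minimal group. All 10 extreme responders were in set B, with 2 female controls, 2 female minimal responders, 2 male controls and 1 male minimal responder. Comparisons of extreme responders are therefore given also with the set as a block. In 4 rats (male minimal 2, female extreme 5, female control 2 and female minimal 3) the choroid plexus genes *Folr1* and *Kl* both lay above 8. The array of male extreme 4 correlated with the others at a median of 0.9643, against 0.9772 to 0.9882 for the rest. All 3 measured markers of dentate granule cells and all 4 of pyramidal cells were above background. Arrays have no read depth, and the number of rats sets the precision.

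Averaged over the sexes, extreme responders had lower levels of several proteasome subunits than minimal responders and higher levels of a few. In that average, 10 of the 65 probes (15.4%) passed, where 7.93% of all probes kept passed. Of the 10, 3 were higher and 7 lower, against 3.3% and 4.63% of all probes kept. The proteasome probes made up 8 of the 10 (8 of 42, 19%), and 6 of the 18 *Psmc* and *Psmd* probes passed (33.3%), which hold the subunits of the 19S particle and its assembly chaperones *Psmd5* and *Psmd9*. The Ube2 probes passed in 2 of 23 (8.7%). The median of the 65 differences was −0.03, against 0.00 over all probes kept. When the set was a block, 4 of the 65 passed, where 2.05% of all probes kept did. Of these only *Psmd11* and probe 2 of *Ube2r2* were among the 10, while *Psmb4* and *Psma1* had not passed without the block. An unadjusted p under 0.05 was reached by 22 of the 65 (33.8%) and by 23.8% of all probes kept. Fewer cells of a type and less RNA per cell cannot be told apart in tissue samples.

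Promoters of proteasome genes that passed are shown for the sequence motifs near their starts. Proteasome genes as a family are known to be raised together by the factor Nfe2l1, with Nfe2l2, through the antioxidant response element, and many carry a CCAAT box bound by NF-Y. The core of that element, TGACNNNGC, and CCAAT were searched on both strands of the 250 bases before the gene start in RefSeq's GRCr8 rat assembly. TGACNNNGC was found in 7 of 39 proteasome promoters (17.9%), 6 of 24 Ube2 promoters (25%) and 10.2% of all 27457 promoters. CCAAT was found in 17 of 39 (43.6%), 7 of 24 (29.2%) and 34.3%. The 150 bases before the start follow for 5 of the 8 proteasome genes that passed, 5′ to 3′ on the gene's strand, with both motifs in capitals on either strand. *Psmd11* lies at chr10:65932193-65932342 (plus strand), *Psmd9* at chr12:39018265-39018414 (minus), *Psmc3* at chr3:97487493-97487642 (plus), *Psmb3* at chr10:83193637-83193786 (plus) and *Psmc2* at chr4:14162391-14162540 (minus).
Psmd11: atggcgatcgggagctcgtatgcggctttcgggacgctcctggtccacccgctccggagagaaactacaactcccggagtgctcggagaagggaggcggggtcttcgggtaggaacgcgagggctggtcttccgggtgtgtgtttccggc
Psmd9: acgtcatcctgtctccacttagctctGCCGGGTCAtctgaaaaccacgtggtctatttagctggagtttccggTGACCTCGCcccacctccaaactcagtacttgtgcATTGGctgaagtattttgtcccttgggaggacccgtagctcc
Psmc3: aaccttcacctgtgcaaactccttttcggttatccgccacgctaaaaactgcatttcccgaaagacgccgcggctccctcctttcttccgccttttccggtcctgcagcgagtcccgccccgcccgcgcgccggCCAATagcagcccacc
Psmb3: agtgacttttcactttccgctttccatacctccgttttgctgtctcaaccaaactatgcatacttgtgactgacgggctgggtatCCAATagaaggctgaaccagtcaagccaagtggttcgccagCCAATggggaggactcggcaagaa
Psmc2: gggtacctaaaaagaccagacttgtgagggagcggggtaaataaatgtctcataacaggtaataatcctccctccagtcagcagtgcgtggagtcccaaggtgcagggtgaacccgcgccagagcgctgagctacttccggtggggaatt
*Psmd9* holds TGACNNNGC on each strand (capitals GCCGGGTCA and TGACCTCGC) and a CCAAT box on the reverse strand (ATTGG). *Psmb3* holds 2 CCAAT boxes and *Psmc3* 1. No match was found for either motif in *Psmd11*, which had the lowest adjusted p of the 65 probes, or in *Psmc2*. The matches do not overlap, and a match is a description of the letters.

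*Psmd11* encodes Rpn6, a subunit of the lid of the 19S particle that helps to hold that particle to the 20S core. Its values, in the order of the replicate numbers here and below, were 12.01, 11.96, 12.22, 12.03 and 12.05 in female controls, 12.21, 12.24, 12.35, 12.15 and 12.14 in female minimal responders and 11.77, 11.71, 11.82, 11.76 and 11.84 in female extreme responders. Every female extreme responder lay below every other female. In males, *Psmd11* was at 12.00, 12.11, 11.90, 12.10 and 11.93 in controls, 11.99, 12.02, 11.90 and 12.10 in minimal and 11.72, 11.18, 11.70, 11.91 and 11.62 in extreme responders. Male extreme 2 was the lowest of all 29 rats, and only male extreme 4, at 11.91, overlapped the other males. The difference between extreme and minimal responders over both sexes was −0.41 ± 0.06 (SE, adjusted p = 0.000513), a fall by 24.6% on the linear scale. It was −0.35 ± 0.08 with the set as a block (adjusted p = 0.0204). Among the 17 rats of set B alone, the 10 extreme responders differed from the other 7 by −0.31 ± 0.08 (adjusted p = 0.0481). In that comparison 3 of the 65 passed, where 2.05% of all probes kept did. *Psmd11* passed in all 29 fits that left out 1 rat.

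*Psmd3* encodes Rpn3, another lid subunit, and its fall was large in females. It was at 12.17, 12.18, 12.35, 12.35 and 12.35 in female controls, 12.45, 12.31, 12.39, 12.30 and 12.54 in female minimal and 11.94, 11.92, 11.96, 12.06 and 11.90 in female extreme responders. Again every female extreme responder lay below every other female. Male controls had 12.33, 12.46, 12.30, 12.53 and 12.41, male minimal responders 12.21, 12.28, 12.23 and 12.36 and male extreme responders 12.11, 12.01, 11.86, 12.62 and 12.18. The male extreme responders were spread widely, with male extreme 4 the highest of all rats and male extreme 3 the lowest. Over both sexes the difference was −0.28 ± 0.07 (adjusted p = 0.0106), −0.34 without male extreme 4 (adjusted p = 0.000394), and −0.20 ± 0.08 with the set as a block (adjusted p = 0.16).

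*Psmd6*, which encodes the lid subunit Rpn7, went the other way. It was at 11.95, 11.89, 11.69, 11.92 and 11.77 in female controls, 11.66, 11.58, 11.66, 11.86 and 11.79 in female minimal and 11.81, 11.94, 11.96, 11.96 and 11.78 in female extreme responders. Male controls had 11.68, 11.64, 11.74, 11.80 and 11.82, male minimal responders 11.64, 11.74, 11.67 and 11.50 and male extreme responders 11.86, 12.12, 11.95, 12.01 and 11.71. The groups overlapped in both sexes, and 4 of 5 male extreme responders lay above all other males. The rise over both sexes was 0.24 ± 0.05 (adjusted p = 0.00804), or 0.20 ± 0.07 with the set as a block (adjusted p = 0.0979).

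*Psmd9* encodes p27, a chaperone that helps assemble the ATPase ring and is not part of the finished proteasome. Its values were 8.18, 8.16, 8.36, 8.60 and 8.31 in female controls, 8.43, 8.25, 8.48, 8.38 and 8.49 in female minimal and 7.87, 8.01, 8.26, 8.14 and 8.28 in female extreme responders. Males had 8.25, 8.50, 8.52, 8.33 and 8.10 as controls, 8.47, 8.41, 8.15 and 8.47 as minimal and 8.07, 8.19, 8.50, 7.60 and 7.87 as extreme responders. The groups overlapped in both sexes, and male extreme 4, at 7.60, was the lowest rat. The difference of −0.31 ± 0.09 (adjusted p = 0.0297) became −0.15 ± 0.10 with the set as a block (adjusted p = 0.424). *Psmd9* also differed between the sets. The call ended without any 1 of 8 rats (female minimal 3 or 5, female extreme 1 or 2, male minimal 1, 2 or 4, or male extreme 4), with a difference from −0.31 to −0.26 and an adjusted p from 0.0518 to 0.0673.

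*Psmc3* and *Psmc2* encode Rpt5 and Rpt1, ATPases of the ring that unfolds substrates, and they moved in opposite directions. *Psmc3* was at 9.33, 9.28, 9.89, 9.77 and 9.86 in female controls, 10.07, 9.86, 9.86, 9.78 and 10.10 in female minimal and 9.49, 9.46, 9.51, 9.45 and 9.49 in female extreme responders. The female controls divided by set, with the pair from set B (9.33 and 9.28) below the extreme responders and the other 3 above them. Males had 9.89, 9.90, 9.83, 9.99 and 9.82 as controls, 9.81, 9.71, 9.78 and 9.85 as minimal and 9.59, 9.60, 9.45, 9.84 and 9.76 as extreme responders. Female extreme responders lay below all female minimal responders, and the male groups overlapped. The difference over both sexes was −0.30 ± 0.07 (adjusted p = 0.0109), and −0.15 ± 0.07 with the set as a block (adjusted p = 0.266).

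*Psmc2* was at 11.08, 11.28, 10.95, 11.07 and 10.96 in female controls, 10.91, 10.77, 10.80, 11.21 and 10.86 in female minimal and 11.08, 11.05, 11.18, 11.23 and 11.09 in female extreme responders. Its values in males were 11.00, 10.95, 10.99, 10.93 and 11.11 in controls, 10.94, 10.98, 10.95 and 10.93 in minimal and 11.15, 11.16, 11.15, 11.14 and 11.10 in extreme responders. Every male extreme responder lay above every male minimal responder. In females 4 of 5 minimal responders lay below all extreme responders, and female minimal 4, at 11.21, lay among them. The rise was 0.20 ± 0.05 (adjusted p = 0.0152), and 0.13 ± 0.06 with the set as a block (adjusted p = 0.247). The other 4 ATPases (*Psmc1*, *Psmc4*, *Psmc5* and *Psmc6*) did not pass, with differences from −0.18 to 0.10.

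**Figure D1:**
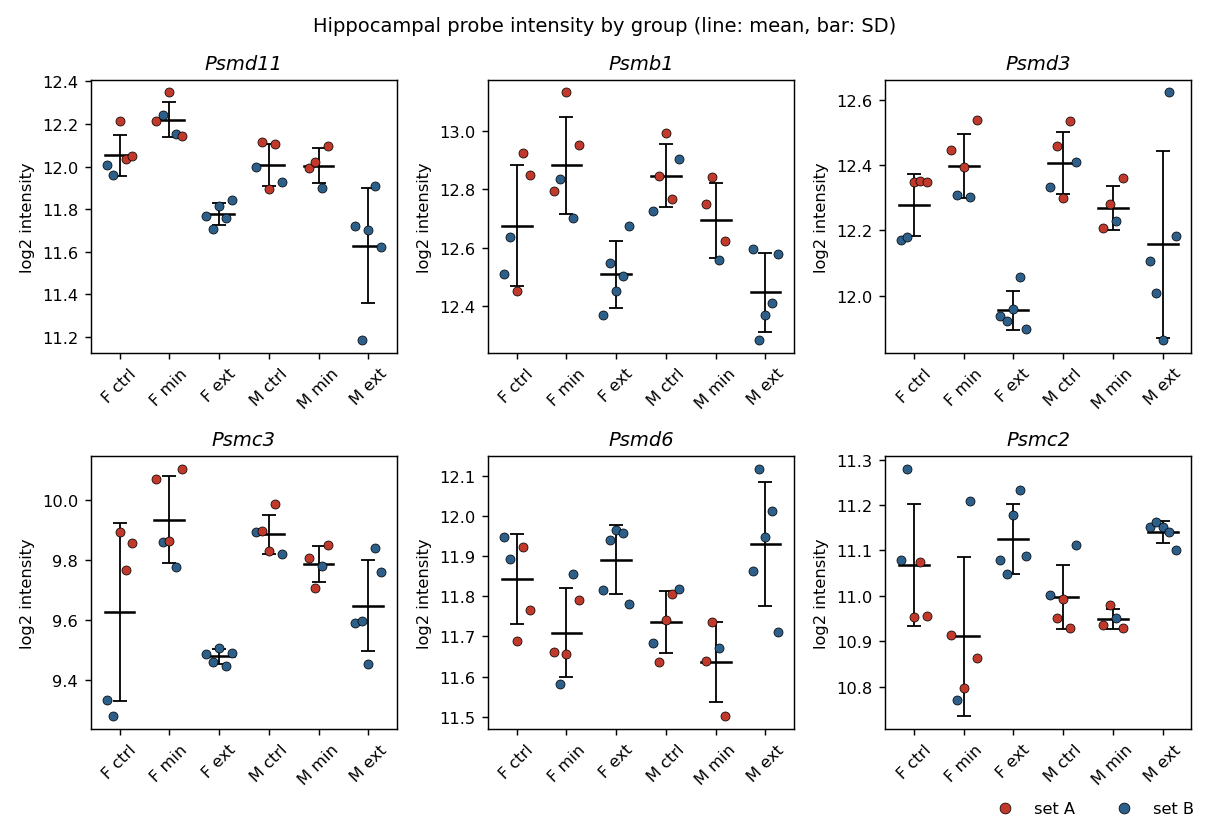
Log2 intensity of 6 proteasome genes in each rat, by group (F female, M male, ctrl control, min minimal, ext extreme), with the colour giving the set of arrays, the line the group mean and the bar the SD. *Psmd11*, *Psmb1*, *Psmd3* and *Psmc3* are lower in the extreme than in the minimal responders of both sexes by their means, *Psmd6* and *Psmc2* are higher, and every extreme responder is in set B.

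*Psmb1* encodes a beta subunit of the 20S core without a cutting site. It was at 12.51, 12.64, 12.45, 12.92 and 12.85 in female controls, 12.79, 12.83, 13.13, 12.70 and 12.95 in female minimal and 12.37, 12.55, 12.45, 12.50 and 12.68 in female extreme responders. In males it was at 12.72, 12.85, 12.99, 12.77 and 12.90 in controls, 12.75, 12.84, 12.56 and 12.62 in minimal and 12.60, 12.28, 12.37, 12.41 and 12.58 in extreme responders. Female extreme responders lay below all female minimal responders, and male extreme responders below all male controls, while the remaining groups overlapped. The difference between extreme and minimal responders was −0.31 ± 0.07 over both sexes (adjusted p = 0.00611), and −0.21 ± 0.08 with the set as a block (adjusted p = 0.136).

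*Psmb3*, another beta subunit without a cutting site, was at 11.90, 11.84, 11.96, 11.88 and 11.76 in female minimal and 11.30, 11.69, 11.68, 11.63 and 11.69 in female extreme responders. It was at 11.80, 11.69, 11.71 and 11.92 in male minimal and 11.55, 11.73, 11.65, 11.18 and 11.73 in male extreme responders. All female extreme responders lay below the female minimal responders, the male groups overlapped, and female extreme 1 and male extreme 4 were far below the rest of their groups. The difference was −0.24 ± 0.07 (adjusted p = 0.04), and −0.21 ± 0.09 with the set as a block (adjusted p = 0.213). The call ended without any 1 of 9 rats (female minimal 1, 3 or 4, female extreme 1 or 4, male minimal 1 or 4, or male extreme 1 or 4), with a difference from −0.24 to −0.19 and an adjusted p from 0.0519 to 0.0975. Of the other 12 probes of the standard 20S core, including the cutting subunits *Psmb5*, *Psmb6* and *Psmb7*, none passed without the block (4 of the 14 had an unadjusted p under 0.05). The median difference over the 14 was −0.08 and 11 of them were below zero.

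A pair of core subunits passed only once the set was a term of the fit. *Psmb4*, a beta subunit, differed by −0.11 ± 0.06 between extreme and minimal responders without the block (adjusted p = 0.269) and by −0.25 ± 0.06 with it (adjusted p = 0.0243). *Psma1*, an alpha subunit, differed by 0.06 ± 0.12 without the block (adjusted p = 0.814) and by 0.39 ± 0.10 with it (adjusted p = 0.0394). Within set B alone the extreme responders differed from the other rats by −0.30 ± 0.06 in *Psmb4* (adjusted p = 0.0188) and by 0.40 ± 0.09 in *Psma1* (adjusted p = 0.0385). *Psma1* in set B was at 8.57 and 7.88 in female controls, 8.55 and 8.31 in female minimal responders, 8.62 and 8.18 in male controls and 8.35 in male minimal responder 3. Its extreme responders ranged from 8.58 to 9.01, overlapping those rats only at the lower end.

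The immunoproteasome replaces the cutting subunits of the core with *Psmb8*, *Psmb9* and *Psmb10* in immune cells and under interferon. None of their 4 probes passed between extreme and minimal responders over both sexes, and 3 of the 4 had an unadjusted p under 0.05. The differences were −0.26 ± 0.09 for *Psmb8* (adjusted p = 0.0753), −0.25 ± 0.09 for *Psmb9* (adjusted p = 0.067) and −0.36 ± 0.12 for probe 1 of *Psmb10* (adjusted p = 0.0731). Probe 2 of *Psmb10* was at 0.02 ± 0.12 (adjusted p = 0.953), so the probes of this gene disagreed in size, although their deviations from the group means correlated at 0.736 over the 29 rats. Male extreme 4 was the lowest of all rats on both probes (9.61 and 8.29). Blocked by set, the 4 differences lay between −0.24 and −0.13, and none passed. The microglial markers beside them had a median difference of −0.01 over 4 genes and summed intensities of 2216 to 2831 in female minimal, 2095 to 2546 in female extreme, 2228 to 2581 in male minimal and 1847 to 2676 in male extreme responders. The part of microglia in these values was not tested.

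The activators *Psme1*, *Psme2* and *Psme4*, which open the gate of the core, had differences from −0.08 to 0.02 over both sexes. The chaperones of the alpha ring, *Psmg1* and *Psmg2*, had −0.14 and −0.11. None of these 5 passed, and *Psmg1* reached an unadjusted p under 0.05.

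Among the ubiquitin-conjugating enzymes, *Ube2r2*, a relative of Cdc34 that builds ubiquitin chains with the cullin ligases, was lower on its dim probe 2. That probe was at 7.32, 7.21, 7.31, 7.18 and 7.21 in female controls, 7.21, 7.15, 7.29, 7.29 and 7.19 in female minimal and 7.10, 7.01, 7.03, 6.98 and 7.12 in female extreme responders. Males had 7.20, 7.15, 7.10, 7.33 and 7.29 as controls, 7.22, 7.22, 7.17 and 7.29 as minimal and 7.17, 6.96, 7.03, 6.96 and 7.02 as extreme responders. The extreme responders were the lowest females, and 5 of the 10 extreme responders fell under the background threshold, as no other rat did. The difference was −0.19 ± 0.04 (adjusted p = 0.00643), and −0.19 ± 0.05 with the set as a block (adjusted p = 0.0446). Within set B it was −0.19 ± 0.05 with an adjusted p of 0.0503. Probe 1 of the same gene, which was above background on all 29 arrays, differed by −0.10 ± 0.06 (adjusted p = 0.353), and the deviations of both probes from the group means correlated at −0.247 over the 29 rats. The fall was thus measured on 1 dim probe, and the brighter probe of the gene did not pass.

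*Ube2s* extends ubiquitin chains for the anaphase-promoting complex and was the other Ube2 gene to pass. It was at 9.92, 10.41, 9.79, 10.27 and 9.76 in female minimal and 10.31, 10.54, 10.34, 10.27 and 10.27 in female extreme responders. It was at 9.67, 9.82, 10.67 and 9.48 in male minimal and 10.41, 10.59, 10.37, 10.74 and 10.53 in male extreme responders. The rise of 0.47 ± 0.14 (adjusted p = 0.0338) became 0.03 ± 0.09 with the set as a block (adjusted p = 0.898). Within set B the extreme responders differed from the others by −0.02 ± 0.06 (adjusted p = 0.894), close to zero among rats of the same set. The call also ended without any 1 of 8 rats (female minimal 1, 3 or 5, female extreme 2, male minimal 1, 2 or 4, or male extreme 4), with a difference from 0.40 to 0.45 and an adjusted p from 0.0533 to 0.0952. The other 21 Ube2 probes did not pass, with differences between −0.20 (*Ube2q1*) and 0.27 (*Ube2z*). They include the probes for genes of K63 chains (*Ube2n*, *Ube2v1*, *Ube2v2*), of NEDD8 (*Ube2f*, *Ube2m*) and of ISG15 (*Ube2l6*).

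**Figure D2:**
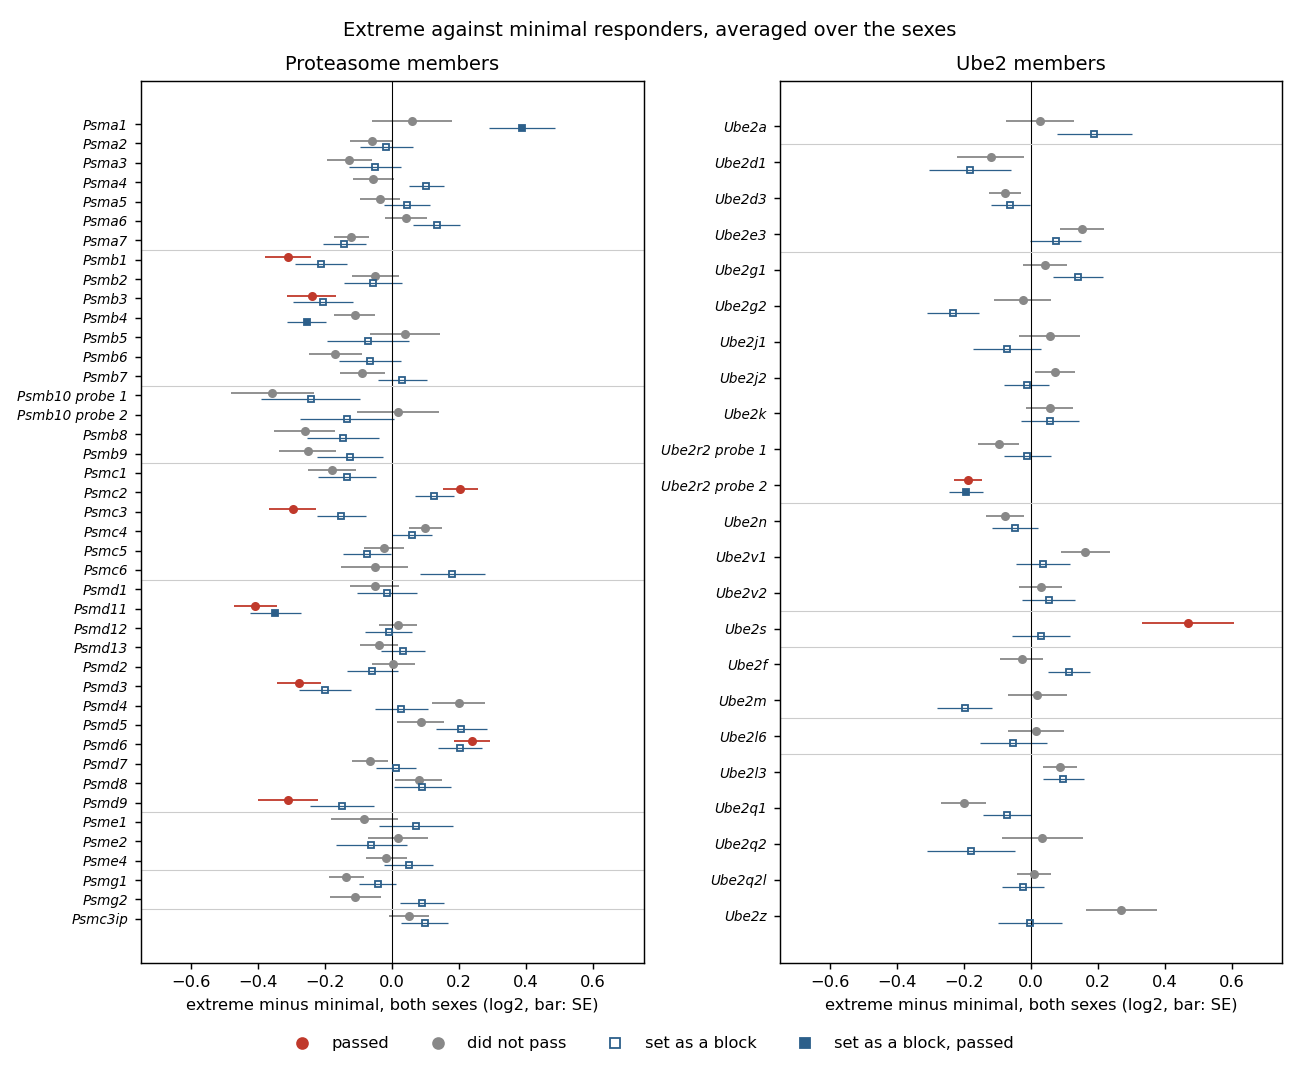
Difference in log2 intensity between extreme and minimal responders, averaged over the sexes, for each of the 42 proteasome and 23 Ube2 probes tested, grouped by role, with bars of 1 SE. Filled circles are without the block (red where the adjusted p passed) and squares with the set as a block (filled where it passed). *Psmd11* stays near its first value in both fits, while *Ube2s* moves from 0.47 to 0.03 and *Psma1* from 0.06 to 0.39.

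In females alone, extreme responders were lower than minimal responders in 5 of the 65 probes (7.69%), where 3.78% of all probes kept passed and 2.42% were lower. An unadjusted p under 0.05 was reached by 20 of the 65, and by 18.4% of all probes kept. All 5 were proteasome subunits, *Psmd11* (−0.44 ± 0.09, adjusted p = 0.00519), *Psmd3* (−0.44 ± 0.09, adjusted p = 0.006), *Psmc3* (−0.46 ± 0.10, adjusted p = 0.00817), *Psmb1* (−0.37 ± 0.09, adjusted p = 0.0224) and *Psma7* (−0.28 ± 0.07, adjusted p = 0.0268). *Psma7* encodes an alpha subunit of the core and was at 11.92, 11.93, 11.93, 12.15 and 11.89 in female controls, 12.06, 12.19, 12.17, 12.19 and 11.97 in minimal and 11.75, 11.79, 11.81, 11.89 and 11.93 in extreme responders. Female extreme responders lay below all female minimal responders in each of the 5 genes. In males *Psma7* was at 11.99, 12.02, 12.03, 11.76 and 12.08 in controls, 11.98, 12.01, 11.90 and 11.88 in minimal and 12.03, 11.98, 12.17, 11.79 and 11.93 in extreme responders, which overlapped throughout.

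With the set as a block, 6 of the 65 passed in females (3.26% of all probes kept). *Psmd11* (−0.39), *Psmd3* (−0.37), *Psmc3* (−0.33) and *Psma7* (−0.30) remained, *Psmb1* did not (−0.29, adjusted p = 0.0907), and *Psmb4* (−0.38 ± 0.07, adjusted p = 0.00468) and *Psmc6*, an ATPase (0.50 ± 0.12, adjusted p = 0.021), were added. Within set B, where 5 extreme stood against 2 minimal responders, 0 of the 65 and 0 of all probes passed, and the differences of the 5 genes were between −0.42 and −0.26. Without the 4 rats with high choroid plexus genes 3 of the 65 passed (1.56% of all probes kept), and *Psmb1* and *Psma7* did not. The count was also 3 without female minimal 3, female extreme 1 or female extreme 3. *Psmb1* did not pass without female minimal 3 or 5 or female extreme 1 or 3 (−0.36 to −0.31, adjusted p from 0.0504 to 0.0722), nor *Psma7* without female minimal 2, 3 or 4 or female extreme 1, 2 or 3 (−0.27 to −0.26, adjusted p from 0.0532 to 0.0707).

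In males alone, 0 of the 65 probes passed between extreme and minimal responders with limma, where 0.0756% of all probes kept did, and 14 had an unadjusted p under 0.05, as did 15.1% of all. The smallest p-values were those of *Psmd11* (−0.38 ± 0.09, adjusted p = 0.0838), *Psmd6* (0.29 ± 0.08, adjusted p = 0.0969), *Psmb9* (−0.43 ± 0.13, adjusted p = 0.112) and probe 2 of *Ube2r2* (−0.20 ± 0.06, adjusted p = 0.121). *Psmd11* passed without male minimal 3 (−0.41, adjusted p = 0.0488), the only male minimal responder of set B, and *Psmd6* passed without male extreme 5 (0.35, adjusted p = 0.0469). When the set was a block, 0 of the 65 probes passed in males, where 0.0336% of all probes kept did.

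Tested directly, the difference between the sexes in the contrast of extreme and minimal responders passed with limma in 0 of the 65 probes and 0% of all probes kept, and an unadjusted p under 0.05 was reached by 9 of the 65 and 7.84% of all. *Psmc6* had the smallest p of the 65. The contrast was 0.29 in females and −0.40 in males, a sex difference of −0.69 ± 0.20 (adjusted p = 0.286). *Psmc6* also differed between the sets (0.34 higher in set A). The male minimal responders of set A were at 8.06, 8.10 and 8.18. Male minimal 3, of set B, was at 7.52, among the male extreme responders (7.28 to 7.81). *Psma7* had the next smallest p, at −0.28 in females and 0.04 in males (difference 0.32 ± 0.11, adjusted p = 0.42). *Psmd7*, a lid subunit (0.29 ± 0.11, adjusted p = 0.462), and *Ube2q2l* (0.28 ± 0.10, adjusted p = 0.451) did not pass either. When the set was a block, the sex difference passed in 0 of the 65 probes and 0.0336% of all probes kept. The contrasts of females and males share no rats, but in both every extreme responder is in set B and 3 minimal responders are in set A. In both, 40 of the 65 probes (61.5%) had the same sign, 23 lower and 17 higher, against 62.4% of all probes kept, a share close to that of the array as a whole. The correlation of both contrasts was 0.479 across the 65 probes and 0.443 across all, with probes not being independent replicates. Blocked by set, 42 of the 65 (64.6%) had the same sign, against 63.8% of all probes kept. The correlations were then 0.379 and 0.364.

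**Figure D3:**
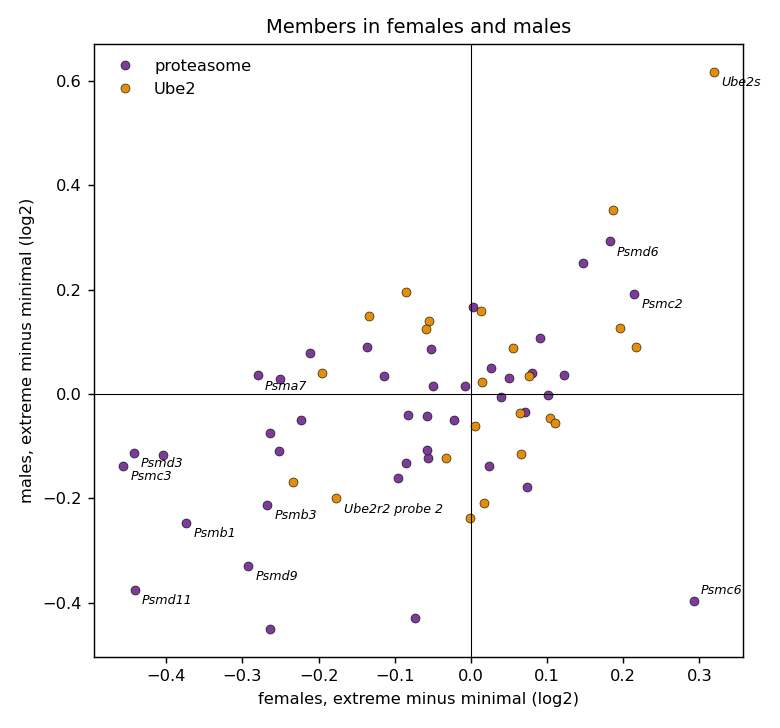
Log2 difference between extreme and minimal responders in females (x axis) and males (y axis), 1 point for each of the 65 probes tested, purple for the proteasome and orange for Ube2. *Psmd11*, *Psmb1*, *Psmb3* and *Psmd9* lie in the lower left, *Psmd6*, *Psmc2* and *Ube2s* in the upper right, and *Psmc6* in the lower right.

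Against controls, male extreme responders were lower in 2 of the 65 probes, where 0.621% of all probes kept passed and 0.454% were lower. An unadjusted p under 0.05 was reached by 16 of the 65 and 16.5% of all. *Psmd11* differed by −0.38 ± 0.09 (adjusted p = 0.0394) and *Psmb1* by −0.40 ± 0.09 (adjusted p = 0.0439), from the values given above. With the set as a block neither passed (−0.33, adjusted p = 0.0936, and −0.31, adjusted p = 0.112), and *Psmb4* did (−0.34 ± 0.07, adjusted p = 0.0292), where 0.479% of all probes kept passed. Both calls stood close to the threshold. *Psmd11* did not pass without female extreme 4, male control 1, 2, 3 or 4, or male extreme 2 (−0.41 to −0.27, adjusted p from 0.0505 to 0.11). *Psmb1* did not pass without female extreme 3 or 4, male control 2, 3, 4 or 5, male minimal 1, or male extreme 2, 3 or 4 (−0.42 to −0.36, adjusted p from 0.0509 to 0.101). The next smallest p-values were those of probe 1 of *Psmb10* (−0.60 ± 0.17, adjusted p = 0.0842) and probe 2 of *Ube2r2* (−0.19 ± 0.06, adjusted p = 0.0976). *Psmb10* on that probe was at 10.99, 11.24, 11.33, 11.13 and 11.22 in male controls and 10.79, 11.10, 10.81, 9.61 and 10.63 in male extreme responders, with male extreme 4 lowest of all rats. Without that rat the difference was −0.35 (adjusted p = 0.199). The dentate granule cell marker *C1ql2* was lower in the same comparison (−0.84, adjusted p = 0.0468), though not past the threshold when the set was a block (−0.78, adjusted p = 0.0936). The other granule cell markers measured, *Prox1* and *Calb1*, did not pass. The part of granule cells in these differences was not tested.

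Between female extreme responders and female controls 0 of the 65 probes passed with limma, where 0.999% of all probes kept did, and 11 had an unadjusted p under 0.05, as did 13.2% of all. *Psmd3* (−0.32 ± 0.09, adjusted p = 0.0762), probe 2 of *Ube2r2* (−0.20 ± 0.06, adjusted p = 0.0922), *Psmd11* (−0.28 ± 0.09, adjusted p = 0.123) and *Psmc1* (−0.28 ± 0.10, adjusted p = 0.183) had the smallest p-values. *Psmd3* passed without male extreme 4 (−0.32, adjusted p = 0.00855) and *Psmd11* without male extreme 2 (−0.28, adjusted p = 0.0308). *Psmb4* passed once the set was a block (−0.28 ± 0.07, adjusted p = 0.0452), where 1.59% of all probes kept did. It was at 12.58, 12.55, 12.47, 12.36 and 12.41 in female controls, 12.42, 12.70, 12.64, 12.64 and 12.47 in minimal and 12.24, 12.39, 12.32, 12.32 and 12.35 in extreme responders. In males *Psmb4* was at 12.70, 12.50, 12.56, 12.26 and 12.86 in controls, 12.25, 12.35, 12.48 and 12.27 in minimal and 12.38, 12.42, 12.34, 12.20 and 12.49 in extreme responders. In set B alone, the extreme responders of each sex lay below all others of that sex except male minimal 3 at 12.48, which male extreme 5 (12.49) exceeded.

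Between minimal responders and controls 0 of the 65 probes passed with limma in females and 0 in males, as did 0% of all probes kept in each. An unadjusted p under 0.05 was reached by 9 of the 65 and 11% of all in females, and by 2 of the 65 and 4.23% of all in males. In females *Psmc3* (0.31 ± 0.10, adjusted p = 0.27), *Ube2e3* (−0.22 ± 0.09, adjusted p = 0.373), *Psmd2* (0.20 ± 0.09, adjusted p = 0.388) and *Psmb3* (0.23 ± 0.10, adjusted p = 0.406) had the smallest p-values. In males these were *Psmb4* (−0.24), *Ube2d3* (−0.16), *Ube2j2* (−0.17) and *Psmg1* (−0.15), each with an adjusted p of 0.998. *Psmd2* encodes Rpn1, a scaffold of the 19S base, and *Ube2d3* and *Ube2e3* are conjugating enzymes that work with many ligases.

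Exposure, taken as the mean of minimal and extreme responders minus controls, passed with limma in 0 of the 65 probes in females, males and over both sexes, where 0.0084%, 0% and 0.109% of all probes kept passed. An unadjusted p under 0.05 was reached by 4 of the 65 in females (10.1% of all), 10 in males (8.49% of all) and 8 over both sexes (8.68% of all). Over both sexes *Psmg1* (−0.12), probe 2 of *Ube2r2* (−0.10), *Psma2* (−0.15) and *Psmd3* (−0.15) had the smallest p-values, with adjusted p from 0.399 to 0.413. In females these were *Psmd2* (0.20), *Psmd13* (−0.16), probe 2 of *Ube2r2* (−0.11) and *Ube2k* (−0.18), with adjusted p from 0.381 to 0.462, and in males *Psmb1* (−0.28), *Psmb4* (−0.22), *Psmg1* (−0.18) and *Psma2* (−0.21), with adjusted p from 0.335 to 0.475. The sex difference in exposure passed in 0 with limma (0% of all probes kept, with 4 unadjusted against 9.67% of all), led by *Psmb1* (−0.30), probe 1 of *Psmb10* (−0.51), *Psmd5* (0.27) and *Psmc3* (−0.25). That in extreme responders against controls passed in 0 with limma as well (0.0168% of all, with 4 unadjusted against 8.49% of all), led by *Psmd5* (0.35), *Ube2k* (0.34), probe 1 of *Psmb10* (−0.61) and *Ube2q2l* (0.21). When the set was a block, the sex difference in extreme responders against controls also passed in 0 of the 65 (0.0252% of all probes kept).

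Between the sets of arrays 18 of the 65 probes differed (27.7%), 11 higher and 7 lower in set A, where 18.9% of all probes kept did, 8.61% higher and 10.3% lower. The groups were in the same fit. *Ube2s* was at 9.48 to 9.99 in the 12 rats of set A and at 10.23 to 10.74 in the 17 of set B, with no overlap (−0.65 ± 0.07, adjusted p = 5.15e-07). *Ube2z*, which takes ubiquitin from the activating enzyme Uba6, was lower in set A as well (−0.40 ± 0.08, adjusted p = 0.000793). So were *Ube2g2*, an enzyme of degradation at the endoplasmic reticulum (−0.31), *Ube2m*, which attaches NEDD8 to cullins (−0.32), *Ube2q2* (−0.31), *Psmd4*, a ubiquitin receptor of the 19S particle (−0.25), and *Psmb4* (−0.21). *Psma1* was the highest of those raised in set A (0.49 ± 0.08, adjusted p = 0.000171), ahead of *Psmc6* (0.34), *Psmg2* (0.29), *Psmd9* (0.24), *Psma4* (0.24), *Psmc3* (0.22), *Ube2f* (0.21), *Ube2q1* (0.19), *Psmb7* (0.18), *Psmg1* (0.14) and *Psmd5*, a chaperone of the ATPase ring (0.18). The sets are not named in the labels, and what divides them was not tested.

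**Figure D4:**
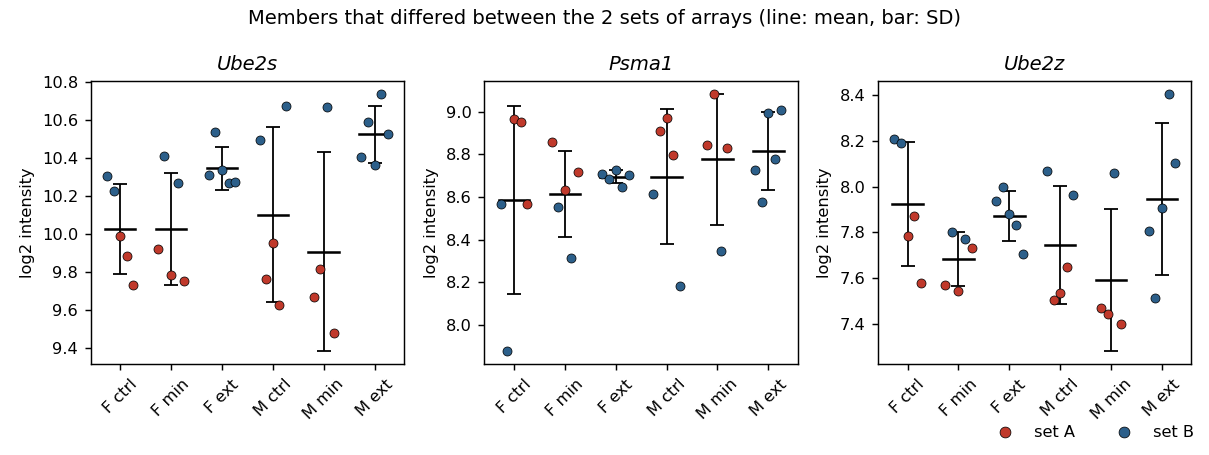
Log2 intensity of *Ube2s*, *Psma1* and *Ube2z* in each rat by group (F female, M male, ctrl control, min minimal, ext extreme), with the colour giving the set of arrays, the line the group mean and the bar the SD. *Ube2s* is at most 9.99 in every rat of set A and at least 10.23 in every rat of set B, whatever the group.

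Taken per rat, the mean deviation of the 42 proteasome probes from their means over all rats was −0.051 ± 0.049 (SD) in female extreme and 0.039 ± 0.035 in female minimal responders, with no overlap. In males it was −0.042 ± 0.072 in extreme and 0.018 ± 0.063 in minimal responders, which overlapped. Controls were at −0.011 ± 0.058 in females and 0.050 ± 0.050 in males. The 7 controls and minimal responders of set B ranged from −0.0737 to 0.0255 and overlapped the 10 extreme responders, all of that set. The highest of these per-rat means was 0.119 in male control 3. The lowest was −0.165 in male extreme 4, whose array correlated least with the others. The other male extreme responders were at −0.0061, −0.016, 0.0167 and −0.0372. For the 23 Ube2 probes the group means lay between −0.022 and 0.021, with all groups overlapping. These are descriptions of the rats, without a test.

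**Figure D5:**
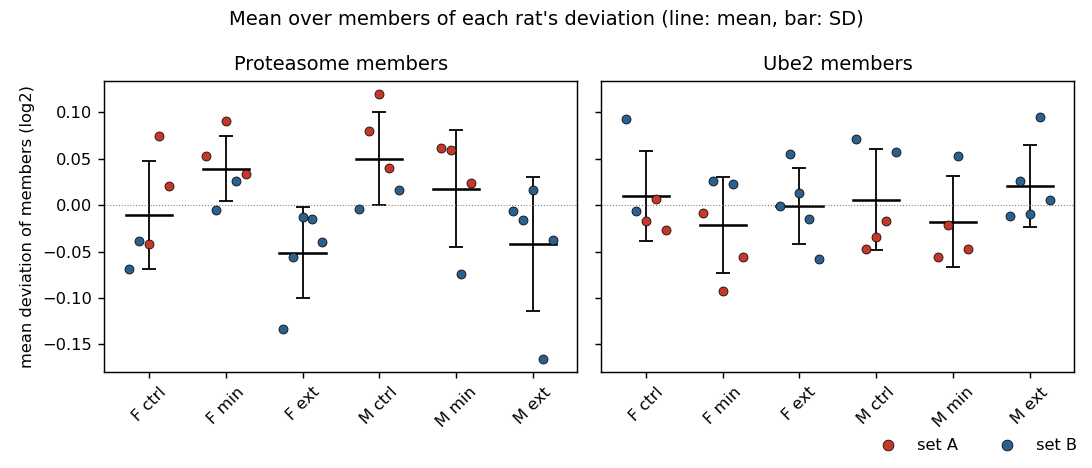
Mean over the 42 proteasome probes (left) and the 23 Ube2 probes (right) of each rat's deviation from the mean over all rats, in log2 units, by group (F female, M male, ctrl control, min minimal, ext extreme), with the colour giving the set of arrays, the line the group mean and the bar the SD. All 5 female extreme responders are below zero on the left, while the groups overlap on the right.

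Within groups, probes of the standard 20S core correlated positively with each other in 79.1% of pairs. The median correlation of deviations from the group means, over the 29 rats, was 0.244 among the 14 core probes, 0.067 among the 18 *Psmc* and *Psmd* probes, 0.437 among the 4 immunoproteasome probes and −0.018 among the 23 Ube2 probes. Over all pairs of probes kept it was 0, with quartiles of −0.182 and 0.184. Between proteasome and Ube2 probes it was −0.043. The values for the core and the immunoproteasome were 0.253 and 0.468 with the set removed as well. The immunoproteasome medians rest on 6 pairs, among them the pair of *Psmb10* probes (0.736), which measure the same gene. Those of the core rest on 91 pairs. The highest single pair was probe 1 of *Psmb10* with probe 1 of *Ube2r2* (0.863), both of which were lowest in male extreme 4 (9.61 and 11.06). In the core that rat was also lowest in *Psma2*, *Psma5*, *Psmb2*, *Psmb3*, *Psmb4*, *Psmb5* and *Psmb6*, and not in the remaining core probes. Among the immunoproteasome probes it was lowest in *Psmb8* and both of *Psmb10*, and not in *Psmb9*. The correlations were not computed without that rat. All probes of a rat share its array, so these are descriptions.

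Of 63 other genes of the ubiquitin pathway, 38 were measured above background. Between extreme and minimal responders over both sexes 3 of the 38 passed (7.89%), 2 higher and 1 lower, a share close to the 7.93% of all probes kept. *Ubqln4*, a shuttle that brings tagged proteins to the proteasome, rose by 0.32 ± 0.07 (adjusted p = 0.00432), *Cul4a*, the scaffold of a cullin ligase, by 0.18 ± 0.05 (adjusted p = 0.0326). *Vcp*, the ATPase that extracts tagged proteins from membranes and complexes, fell by 0.17 on the log2 scale (± 0.05, adjusted p = 0.0285). With the set as a block none of the 3 passed (adjusted p = 0.171 for *Ubqln4*, 0.2 for *Cul4a* and 0.13 for *Vcp*). *Nfe2l2* did not pass (0.13, adjusted p = 0.275). In females *Cul4a* passed (0.27 ± 0.07, adjusted p = 0.0312) and was no longer past the threshold once the set was a block (0.25, adjusted p = 0.0813). Between the sets 11 of the 38 passed (28.9%, against 18.9% of all probes kept), among them *Sqstm1*, an autophagy receptor for tagged proteins (−0.58 in set A), *Rbx1*, the ring subunit of cullin ligases (−0.40), and *Adrm1*, a ubiquitin receptor of the proteasome (0.33).

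A few markers of cell types, named here, passed in the same comparison, where 7.93% of all probes kept did. No marker of dentate granule, pyramidal, microglial, endothelial, choroid plexus or immune cells passed in it. All 5 oligodendrocyte markers measured were higher in extreme than in minimal responders over both sexes, with a median of 0.22, and *Cnp* passed (0.47 ± 0.11, adjusted p = 0.00813). Their summed intensity was 9921 to 16510 in female minimal, 12240 to 18390 in female extreme, 8521 to 15880 in male minimal and 12680 to 18480 in male extreme responders. By set the sum was 8521 to 15880 in set A and 10850 to 18480 in set B, which overlap. Of the 5 markers *Mbp* passed between the sets (−0.97 in set A, adjusted p = 2.37e-05), and the median of the 5 was −0.08. The neuronal marker *Tubb3* (0.45 ± 0.12, adjusted p = 0.0261) and the astrocyte marker *Slc1a2* (0.25 ± 0.08, adjusted p = 0.0401) passed too, with 3 of 4 neuronal and 4 of 5 astrocyte markers above zero. None of the 3 passed when the set was a block. The 3 choroid plexus markers measured were all below zero, with a median of −0.32. The part of these cell types in the differences of the proteasome genes was not tested.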

How the data were processed

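Hippocampal total RNA was purified on RNeasy columns and hybridised as biotin-labelled cRNA, per the labels' protocols. The authors' deposited log2 intensities were already normalised between arrays: the sorted columns agreed within 0.00119, and values ran from 6.31 to 15 with a median of 6.96. No source used here gives the log base or the normalisation steps, and base 2 was read from the range. A second table of 60 columns was not used, because its column names match no label. The array of 1 male minimal responder held no values.

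Background was set at 7.03, the mode of the values (6.7) plus 3 SDs of 0.108, and 11907 of 22523 probes (52.9%) were above it on at least 5 arrays. limma 3.58.1 (R 4.3.3) fitted the 6 groups together with 23 residual and 5.06 prior degrees of freedom. Tests were two-sided, for 13 comparisons, with Benjamini-Hochberg adjustment within each, and the fit was tested on simulated data. Figures were drawn with matplotlib 3.10.9 in Python 3.11.15. The sets of arrays were found from probes with a gap of at least 0.8 between rats and at least 5 rats on each side. Named are the members past the threshold in any comparison and, where fewer than 4 passed, the 4 with the smallest unadjusted p. The members and lists were chosen with earlier results of these data known. Symbols come from the platform annotation, which names 1 gene for 13793 probes and none for 8730. Promoters were matched by gene identifier in RefSeq's GRCr8 table, for 63 of the 70 genes. The labels do not describe repeat arrays of a rat. Alternatives were the set of arrays and the replicate number as blocks, each sex alone, array weights, cyclic loess, other filters and leaving out each rat.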

Additional observations from a re-analysis of the deposited data

Results flagged for a closer look

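Single rats stood apart from the rest of their group in 4 of 66 tests of 11 genes in 6 groups, each a gap to the nearest rat above Dixon's critical value of 0.71 as a share of the group's range. Chance flags about 1 in 20 such groups. *Psma7* was at 12.15 in female control 4, against 11.89 to 11.93 in the other female controls. *Psma7* was at 11.76 in male control 4, against 11.99 to 12.08 in the other male controls. *Psmb3* was at 11.3 in female extreme 1, against 11.63 to 11.69 in the other female extreme responders. *Ube2s* was at 10.54 in female extreme 2, against 10.27 to 10.34 in the other female extreme responders.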

How the results depend on the processing

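The count of proteasome and Ube2 probes that passed moved most in the comparisons of extreme responders. The share of all probes kept that passed under the same setting is in brackets. Over both sexes 10 passed against minimal responders (7.93%). With the set of arrays as a block 4 passed (2.05%), of which only *Psmd11* and probe 2 of *Ube2r2* were among the 10. *Psmb4* and *Psma1* were added. Within set B 3 passed (2.05%), *Psmd11* from the 10 and again *Psmb4* and *Psma1*. That comparison was added after seeing the data and also joins minimal responders and controls. In females the 5 (3.78%) became 0 within set B (0%), 8 with array weights (5.87%) and 3 without the 4 rats with high choroid plexus genes (1.56%), also added after seeing the data. For female extreme responders against controls the 0 (0.999%) became 1 with the set as a block (1.59%), 2 with each sex fitted alone (1.51%) and 3 with array weights (3.49%). In males the 0 against minimal responders (0.0756%) became 1 with array weights (0.202%). The 2 against male controls (0.621%) became 1 with the set as a block (0.479%), 1 with cyclic loess (0.512%), 1 without the 4 choroid plexus rats (0.437%), and 0 within set B (0%), with each sex fitted alone (0%) or with the replicate number as a block (0.294%). The 1 with the set as a block was *Psmb4*, which was not among the 2. The causes were not tested.

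Leaving out 1 rat at a time gave 7 to 14 probes over both sexes, 3 to 6 in female and 0 to 2 in male extreme against minimal responders, and 0 to 1 in female and 0 to 2 in male extreme responders against controls. The other 8 comparisons stayed at 0 in each. The share of all probes kept that passed is not given for these fits, so their counts cannot be set against the whole array. Replicate numbers did not pair the rats: the median correlation of deviations was −0.014 over 70 same-numbered pairs and −0.006 over 280 others, and 1 of 29 rats was closest to a rat of its own number. With the number as a block 5 passed in female extreme against minimal responders (3.46% of all probes kept) and 9 over both sexes (7.41%). Elsewhere 0 passed, where at most 0.857% of all probes kept did, in female extreme responders against controls. Between the sets of arrays 18 passed (18.9%), 13 with no filter on dim probes (8.6%) and 26 without the group term (22.9%). The named difference of *Ube2s* over both sexes changed sign, from 0.47 to −0.02 ± 0.06 within set B. No other named difference did. Probe 2 of *Psmb10*, which was not among those named for that comparison, was near zero and fell below it when blocked by set. Comparisons within a set in which a group had fewer than 2 rats were not run.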
